A study of Saccharomyces cerevisiae with 32 samples.

Results

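CLN1, CLN2 and CLN3 encode the G1 cyclins of the budding yeast Saccharomyces cerevisiae, and PCL1, PCL2 and PCL9 encode cyclins of the kinase Pho85 that are made in G1 or as cells leave mitosis. The 6 genes were chosen by name and not by a measured value, and they are 6 of the 6205 genes tested. Each was read by 1 probe with 2 spots per array. All 6 probes were well above background in both channels of all 32 arrays, were saturated on 0 arrays and had a value on all 32, so no filter on dim probes touched them.

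The arrays follow RNA from 2 strains released from a G1 arrest by the mating pheromone alpha-factor. In 4P (strain YBL289) 4 transcription factor genes held tagged mutant alleles, which were hcm1-15A-3HA at HCM1, tos4-9A-3FLAG at TOS4, yox1-9A-3V5 at YOX1 and yhp1-13A-13MYC at YHP1. In WT (strain YBL320) the same 4 genes were tagged and otherwise unmutated, as HCM1-3HA, TOS4-3FLAG, YOX1-3V5 and YHP1-13MYC, so the WT of this study is a tagged strain. Both were held in alpha-factor for 2 h and sampled at 0, 15, 30, 45, 60, 75, 90 and 105 min, with 2 arrays in each of the 16 groups. The title of the series places the question in the control of these factors by the kinase Cdk1. The labels name 1 strain per genotype. Each array also held RNA of an untagged strain (MW836a) in mid-log growth, the common reference.

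Cln cyclins bind the kinase Cdk1 (Cdc28) and carry the cell through Start, the commitment to a new cycle. Cln3 acts first and helps to free the transcription factor SBF (Swi4 with Swi6) from its inhibitor Whi5. SBF then drives CLN1, CLN2 and PCL1, and Cln1 and Cln2 promote budding and the rise of their own transcripts. Pcl1 and Pcl2 join Pho85 in the same window and matter most when Cln1 and Cln2 are missing. PCL9, and in part PCL2, are transcribed at the exit from mitosis by Swi5. The CLN3 promoter holds early cell cycle box elements, where Mcm1 acts and where Yox1 and Yhp1, both altered in 4P, are repressors.

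Each value is the log2 ratio of the released culture to the reference, so 0 is the level of a growing mixed culture, and levels are compared here within a gene only. A difference is given as 4P minus WT, ± the standard error (SE) from a limma fit over all 32 arrays, and a call is an adjusted p under 0.05 after the Benjamini-Hochberg method over all genes. Arrays with the same strain and replicate number belong to 1 of 4 time courses. Replicate 1 carried the sample in Cy3, and the dyes were swapped to Cy5 in replicate 2. Arrays differed in quality, with 94.8% to 99.6% of spots well above background and a correlation between replicates of 0.586 (4P at 105 min) to 0.912. The 4P array at 105 min of replicate 1 had 1761 outlier-marked spots, against a median of 9. The 5 slides followed genotype and replicate closely, so slide and genotype cannot be told apart at most times, and the number of arrays limits the precision. At 0 min the mean of 7 MATa-specific genes was 1.92 to 2.26 in 4P and 1.91 to 2.19 in WT. On other arrays of the course it was as low as -2.34 in both strains. The mean of 4 MATalpha-specific genes at 0 min was 0.19 to 0.40 in 4P and 0.50 to 0.86 in WT. Over all arrays it was -0.12 to 0.40 in 4P and 0.13 to 0.86 in WT, and 1 of these genes was well above background on only 8 arrays. The MATa-specific genes were highest at 0 min in both strains, so these ratios do not by themselves show the cell type. Between strains 3 MATa-specific genes passed at a single time (MFA2 lower in 4P at 60 min, STE6 and BAR1 higher at 75 min), as did the MATalpha-specific STE3, lower in 4P at 0 min. Of all genes 0.451% were called at 60 min, 4.98% at 75 min and 0.113% at 0 min, and the share at 75 min hung on a single array. The part of these mating-type genes in the results was not tested.

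All 6 genes changed over time in both strains. In 4P the largest adjusted p of the 6 was 2.7e-05, and in WT it was 0.000501, in both cases that of CLN3, where 40.4% of all genes passed in 4P and 35.6% in WT. The range over the 8 group means was widest for CLN1, at 3.58 in 4P and 3.84 in WT, a 12.0-fold and a 14.3-fold span. PCL1 spanned 3.19 in 4P and 3.29 in WT. PCL2 spanned 2.43 and 2.84, PCL9 2.36 and 2.84 and CLN2 2.40 and 2.70, again in 4P and WT. CLN3 had the narrowest range, 1.23 in 4P and 0.91 in WT, against a median over all genes of 0.63 in 4P and 0.61 in WT. By the size of the range CLN1 stood at rank 49 in 4P and 34 in WT among 6205 genes, and CLN3 at rank 709 in 4P and 1546 in WT.

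**Figure D1:**
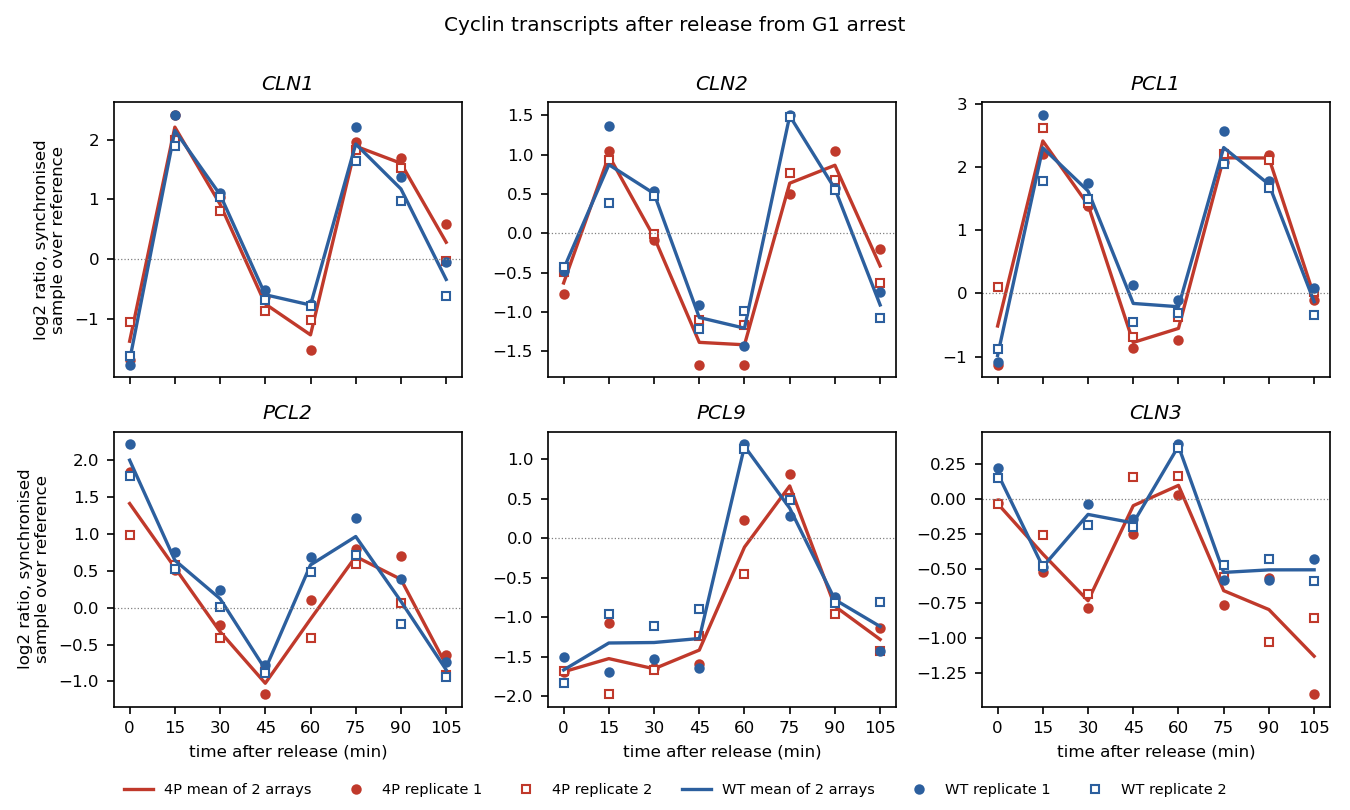
Each panel plots 1 gene, with time after release in minutes on the horizontal axis and the log2 ratio of sample over reference on the vertical axis; circles are replicate 1, squares replicate 2 and lines the mean of 2 arrays, with 4P in red and WT in blue. CLN1, CLN2 and PCL1 rise at 15 and 75 min, PCL2 starts high and returns at 75 min, and PCL9 is highest at 75 min in 4P and at 60 min in WT.

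The first group consists of the SBF-driven cyclin genes CLN1, CLN2 and PCL1. They were low in the arrest, rose at the first sample after release, were low again at 45 and 60 min and rose once more at 75 min. CLN1 had the sharpest course. In 4P its log2 ratios in replicates 1 and 2 were -1.70 and -1.06 at 0 min, 2.42 and 2.00 at 15 min, 1.03 and 0.80 at 30 min, -0.63 and -0.87 at 45 min, -1.52 and -1.01 at 60 min, 1.96 and 1.82 at 75 min, 1.69 and 1.52 at 90 min and 0.59 and -0.03 at 105 min. In WT they were -1.77 and -1.62 at 0 min, 2.40 and 1.89 at 15 min, 1.11 and 1.04 at 30 min, -0.51 and -0.68 at 45 min, -0.76 and -0.79 at 60 min, 2.20 and 1.65 at 75 min, 1.37 and 0.98 at 90 min and -0.06 and -0.63 at 105 min. From high to low, the means of both strains followed the same order of 15, 75, 90, 30, 105, 45, 60 and 0 min. The neighbours 45 and 60 min did not differ beyond their error in either strain (adjusted p = 0.455 in 4P and 0.834 in WT), nor did 75 and 90 min (adjusted p = 0.567 in 4P and 0.134 in WT), steps in which 3.08% and 4.64% of all genes passed in 4P and 5.9% and 4.06% in WT. Between 0 and 15 min, a step in which 14.5% of all genes passed in 4P and 17.2% in WT, CLN1 rose by 3.58 ± 0.26 in 4P (adjusted p = 1.2e-09) and by 3.84 ± 0.26 in WT (adjusted p = 3.4e-10). The second rise, between 60 and 75 min, was 3.16 in 4P and 2.69 in WT, with adjusted p values of 1.6e-08 and 3.2e-07, and 10.9% of all genes passed in 4P and 5.93% in WT. The levels at 75 and 15 min did not differ beyond their error, at -0.32 ± 0.26 in 4P (75 minus 15 min, adjusted p = 0.519) and -0.22 ± 0.26 in WT (adjusted p = 0.574).

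PCL1, the Pho85 cyclin gene of the same wave, followed CLN1 closely. Its log2 ratios in 4P were -1.13 and 0.10 at 0 min, 2.20 and 2.62 at 15 min, 1.38 and 1.42 at 30 min, -0.87 and -0.69 at 45 min, -0.73 and -0.38 at 60 min, 2.08 and 2.21 at 75 min, 2.18 and 2.10 at 90 min and -0.11 and 0.03 at 105 min. In WT they were -1.08 and -0.88 at 0 min, 2.83 and 1.78 at 15 min, 1.74 and 1.50 at 30 min, 0.13 and -0.45 at 45 min, -0.11 and -0.32 at 60 min, 2.57 and 2.04 at 75 min, 1.78 and 1.67 at 90 min and 0.08 and -0.34 at 105 min. The replicates spread most at the first samples, at -1.13 and 0.10 in 4P at 0 min and at 2.83 and 1.78 in WT at 15 min. It rose by 2.93 ± 0.32 in 4P and by 3.28 ± 0.32 in WT on release (adjusted p = 4.4e-07 and 8.3e-08), and by 2.70 in 4P and 2.52 in WT at the second rise (adjusted p = 2.8e-06 and 9.0e-06).

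CLN2, the close relative of CLN1, took part in both waves. Its step was smaller than those of CLN1 and PCL1 on release in both strains and at the second rise in 4P. In WT its second rise, 2.70, was level with the 2.69 of CLN1. Its log2 ratios in 4P were -0.78 and -0.48 at 0 min, 1.05 and 0.93 at 15 min, -0.09 and 0.00 at 30 min, -1.67 and -1.10 at 45 min, -1.67 and -1.16 at 60 min, 0.50 and 0.77 at 75 min, 1.05 and 0.68 at 90 min and -0.20 and -0.62 at 105 min. In WT they were -0.48 and -0.42 at 0 min, 1.36 and 0.39 at 15 min, 0.54 and 0.47 at 30 min, -0.92 and -1.22 at 45 min, -1.43 and -0.98 at 60 min, 1.51 and 1.48 at 75 min, 0.58 and 0.55 at 90 min and -0.74 and -1.07 at 105 min. The highest sample was that of 90 min in replicate 1 of 4P, that of 15 min in replicate 2 of 4P and that of 75 min in both WT courses. The WT time held with 3 of the 5 sets of starting values and normalisations. With the scanner's ratios, the deposited table or median centring the highest sample was that of 15 min in both 4P courses. On release CLN2 rose by 1.62 ± 0.25 in 4P (adjusted p = 8.1e-05) and by 1.32 ± 0.25 in WT (adjusted p = 0.00076). At the second rise it gained 2.05 in 4P and 2.70 in WT (adjusted p = 5.8e-06 and 2.7e-07). The second peak against the first, 75 minus 15 min, was -0.35 ± 0.25 in 4P (adjusted p = 0.465) and 0.62 ± 0.25 in WT (adjusted p = 0.0948). The WT value depends on 2 arrays at 15 min that disagree, at 1.36 and 0.39. Without WT at 15 min of replicate 1 it was 1.11, and without replicate 2 it was 0.13. The difference between strains in this contrast was -0.97 ± 0.36 (adjusted p = 0.404). That difference was -1.46 without the first of these arrays and -0.48 without the second.

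PCL2 combined a high level in the arrest with a second, lower peak. In 4P its log2 ratios were 1.84 and 0.98 at 0 min, 0.50 and 0.58 at 15 min, -0.24 and -0.41 at 30 min, -1.17 and -0.88 at 45 min, 0.10 and -0.42 at 60 min, 0.80 and 0.58 at 75 min, 0.70 and 0.06 at 90 min and -0.64 and -0.91 at 105 min. In WT they were 2.21 and 1.78 at 0 min, 0.76 and 0.52 at 15 min, 0.24 and 0.00 at 30 min, -0.78 and -0.89 at 45 min, 0.68 and 0.48 at 60 min, 1.21 and 0.71 at 75 min, 0.39 and -0.22 at 90 min and -0.74 and -0.94 at 105 min. The samples taken at 0 min were the highest of all 4 courses, and those at 45 or 105 min the lowest. Between 0 and 15 min PCL2 fell by 0.87 ± 0.27 in 4P (adjusted p = 0.0295) and by 1.36 ± 0.27 in WT (adjusted p = 0.000908). The 4P call was lost in 3 of the 32 fits that left out 1 array, and without 4P at 0 min of replicate 1 the change was -0.44 (adjusted p = 0.426). The return to the second peak lay between 45 and 75 min. Between 45 and 60 min the step was 0.87 ± 0.27 in 4P (adjusted p = 0.0915) and 1.41 ± 0.27 in WT (adjusted p = 0.00142), and between 60 and 75 min it was 0.85 in 4P (adjusted p = 0.043) and 0.38 in WT (adjusted p = 0.639). The difference between strains in the first of these steps was -0.55 ± 0.38 (adjusted p = 1) and in the second 0.46 ± 0.38 (adjusted p = 0.999), so neither was told apart between strains. Of the 4P steps, that between 45 and 60 min passed with median centring (adjusted p = 0.0407) and with each of the 3 blocks, and that between 60 and 75 min was not called with the scanner's ratios (adjusted p = 0.0871), with the deposited table (adjusted p = 0.079) or in 9 of the 32 fits that left out 1 array.

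PCL9, the Swi5-dependent Pho85 cyclin gene, made a single peak late in the course. In 4P its log2 ratios were -1.70 and -1.69 at 0 min, -1.07 and -1.98 at 15 min, -1.64 and -1.67 at 30 min, -1.60 and -1.24 at 45 min, 0.23 and -0.45 at 60 min, 0.82 and 0.51 at 75 min, -0.77 and -0.95 at 90 min and -1.14 and -1.43 at 105 min. In WT they were -1.51 and -1.83 at 0 min, -1.70 and -0.96 at 15 min, -1.53 and -1.11 at 30 min, -1.64 and -0.90 at 45 min, 1.20 and 1.14 at 60 min, 0.29 and 0.48 at 75 min, -0.74 and -0.82 at 90 min and -1.43 and -0.81 at 105 min. Up to 45 min every array of both strains lay between -1.98 and -0.90, and the arrays above the reference were all from 60 or 75 min. Between 45 and 60 min PCL9 rose by 1.31 ± 0.30 in 4P (adjusted p = 0.0118) and by 2.44 ± 0.30 in WT (adjusted p = 7.2e-06). The 4P call was lost without 4P at 45 min of replicate 1 (1.13, adjusted p = 0.214) and without 4P at 60 min of replicate 1 (0.97, adjusted p = 0.216). Between 60 and 75 min it moved by 0.78 ± 0.30 in 4P (adjusted p = 0.0994) and by -0.78 ± 0.30 in WT (adjusted p = 0.161), and both passed with slide as a block (adjusted p = 0.0161 and 0.0252). The highest sample was that of 75 min in both 4P courses and that of 60 min in both WT courses, and this held with all 5 sets of starting values and normalisations. Of the 6 genes PCL9 alone passed between the first and the second G1 phase. Its level at 75 min exceeded that at 15 min by 2.19 ± 0.30 in 4P (adjusted p = 2.8e-05) and by 1.71 ± 0.30 in WT (adjusted p = 0.000566), and the other 5 genes did not pass in this contrast, which 7.85% of all genes passed in 4P and 17.5% in WT.

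CLN3, the most upstream of the cyclin genes, moved least. In 4P its log2 ratios were -0.03 and -0.03 at 0 min, -0.53 and -0.26 at 15 min, -0.78 and -0.68 at 30 min, -0.25 and 0.16 at 45 min, 0.03 and 0.17 at 60 min, -0.76 and -0.56 at 75 min, -0.56 and -1.02 at 90 min and -1.40 and -0.86 at 105 min. In WT they were 0.22 and 0.15 at 0 min, -0.49 and -0.48 at 15 min, -0.04 and -0.18 at 30 min, -0.14 and -0.20 at 45 min, 0.40 and 0.37 at 60 min, -0.58 and -0.47 at 75 min, -0.58 and -0.43 at 90 min and -0.43 and -0.59 at 105 min. The arrays of a time spread with a pooled SD of 0.23 in 4P, against 0.075 in WT. In every course the highest sample was that of 60 min, before the second rise of CLN1 and CLN2. In 4P this held with 3 of the 5 sets of starting values and normalisations, and in replicate 2 of 4P the samples of 45 and 60 min were level, at 0.16 and 0.17. CLN3 then fell between 60 and 75 min by 0.76 ± 0.17 in 4P (adjusted p = 0.0048) and by 0.91 ± 0.17 in WT (adjusted p = 0.00112), calls that were lost with the scanner's own log ratios (-0.78, adjusted p = 0.149, in 4P and -0.69, adjusted p = 0.191, in WT).

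Across the 16 group means the 6 genes fell into 4 kinds of course. CLN1 and PCL1 correlated at r = 0.98, CLN2 and PCL1 at 0.93 and CLN1 and CLN2 at 0.89. CLN3 ran against all 3, at -0.64 with CLN1, -0.53 with CLN2 and -0.55 with PCL1. PCL9 stayed between 0.05 and 0.15 with the other 5 genes, and PCL2 between 0.04 and 0.40. These values describe 16 means that share arrays and the reference. Within each strain alone CLN1 and PCL1 stood at 0.96 in 4P and 0.99 in WT.

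**Figure D2:**
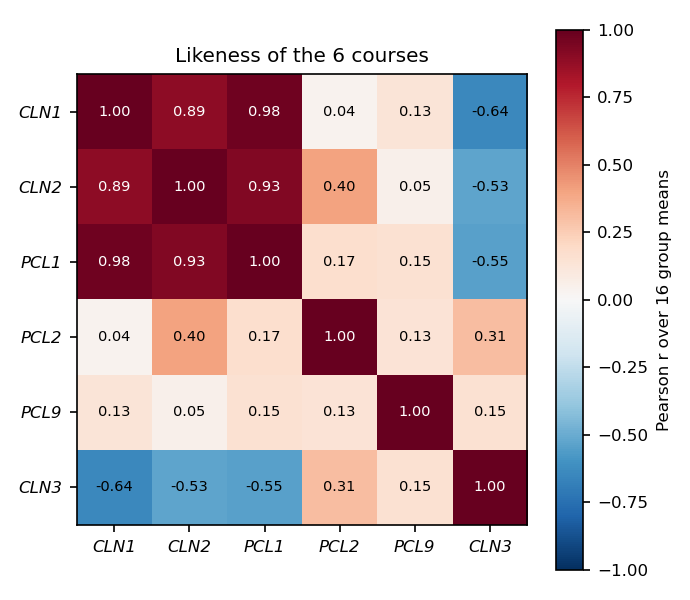
Rows and columns are the 6 genes, and each cell holds Pearson's r of their log2 ratios over 16 group means. CLN1, CLN2 and PCL1 form a block at 0.89 to 0.98, CLN3 is negative with all 3, and PCL2 and PCL9 match no other gene above 0.40.

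The genes with the most similar courses were sought among 1821 genes that ranged over at least 1 log2 unit and had a value on every array. For CLN1 these were SPO16 (r = 0.98), PCL1 (0.98) and the mannosyltransferase gene MNN1 (0.97). For PCL1 they were SPO16 (0.98), CLN1 (0.98) and the septin-associated kinase gene GIN4 (0.97). CLN2 was most like TOS2 (0.98), the ribonucleotide reductase gene RNR1 (0.97) and CSI2 (0.97). PCL9 was most like the Cdk1 inhibitor gene SIC1 (0.98), the reading frame YOR263C (0.98) and AIM44 (0.98). PCL2 had looser matches, the pheromone gene MFA2 (0.88), PDR8 (0.88) and the cell wall gene TIP1 (0.86). CLN3 had the loosest, the glucose sensor gene RGT2 (0.77), STP4 (0.76) and the reading frame YGR109W-A (0.75), and the last stood at 0.98 in 4P alone and 0.54 in WT alone.

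The comparison of the strains asks whether the mutant factors change these cyclin transcripts. None of the 6 genes was called between 4P and WT at any single time in the limma fit without a replicate block. With that block PCL9 passed at 60 min and CLN2 at 75 min (adjusted p = 0.0414 and 0.0252), among 43 and 997 genes called. Without it 8 of the 48 differences had an unadjusted p under 0.05. Over all genes and times 10.4% of differences had such an unadjusted p, from 5.09% at 45 min to 23.8% at 75 min. Of all genes 0.113% were called at 0 min and at 15 min, 0.0967% at 30 min, 0.161% at 45 min, 0.451% at 60 min, 4.98% at 75 min, 0.0322% at 90 min and 0.371% at 105 min. Single arrays moved these shares: the 309 genes called at 75 min became 1 without WT at 75 min of replicate 1, the 23 at 105 min became 337 without 4P at 105 min of replicate 2, and the 7 at 15 min became 299 without WT at 15 min of replicate 1. In the test for a difference at any time 0 of the 6 passed (3 unadjusted), against 5.04% of all genes (19.4% unadjusted). In the test for a difference that depends on time 0 passed (2 unadjusted), against 0.0806% (4.08% unadjusted). In the mean over the course 0 passed (0 unadjusted), against 0.0175% (10.4% unadjusted), and the 6 differences ran from -0.25 for PCL2 to 0.07 for CLN1. A lower ratio in a bulk sample can mean fewer cells in the phase that makes the transcript or less RNA per cell, and these cannot be told apart here.

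**Figure D3:**
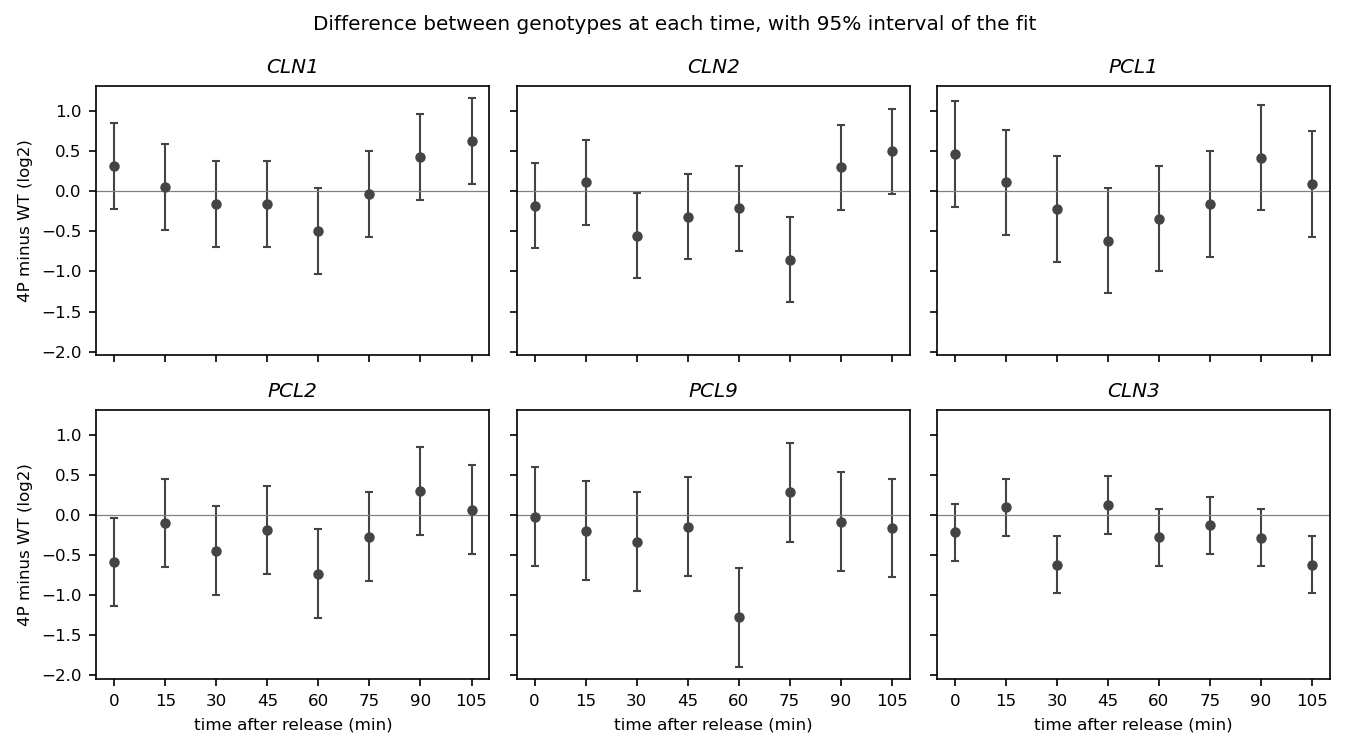
Each panel plots 1 gene, with time after release in minutes on the horizontal axis and the difference 4P minus WT in log2 ratio on the vertical axis; bars are the 95% interval of the fit over 32 arrays. The lowest points are PCL9 at 60 min (-1.28) and CLN2 at 75 min (-0.86), and the highest is CLN1 at 105 min (0.62).

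PCL9 at 60 min was the largest difference of the set. The ratios were 0.23 and -0.45 in 4P, against 1.20 and 1.14 in WT, and the groups did not overlap. Both 4P arrays lay below both WT arrays for 18.5% of all genes at this time. The difference was -1.28 ± 0.30 (95% interval -1.89 to -0.66, 0.412 times the WT level), with an adjusted p = 0.0633. It was -0.97 within the Cy3 arrays and -1.59 within the Cy5 arrays, and with a replicate block, which removes the dye orientation, the adjusted p = 0.0414. With slide as a block it was -0.68 (adjusted p = 0.998), and across 10 other settings it ran from -1.47 to -0.68.

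CLN2 at 75 min was the next. The ratios were 0.50 and 0.77 in 4P, against 1.51 and 1.48 in WT, with no overlap. At this time 27.8% of all genes had both 4P arrays below both WT arrays and 30.1% had both above. The difference was -0.86 ± 0.25 (95% interval -1.39 to -0.33), with an adjusted p = 0.0538, and 0.0252 with a replicate block. This value depends on where the ratios start. In the scanner's own log ratios the 4P arrays stood at 0.51 and 0.85 and the WT arrays at 1.42 and 0.73, so the groups overlapped, replicate 2 had 4P above WT, and the difference was -0.395 (adjusted p = 0.442). The deposited table gave -0.395 too (adjusted p = 0.433). The array that moved was WT at 75 min of replicate 2, 1.48 after normexp and loess, 1.57 after normexp and median centring, 0.73 in the scanner's ratios and 0.73 in the deposited table. The 2 spots of a cyclin probe differed by a median of 0.079 after normexp and loess and of 0.089 in the scanner's ratios, with a highest difference of 0.85 and 1.93.

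At 90 min the order of the strains for CLN2 was turned, at 1.05 and 0.68 in 4P, against 0.58 and 0.55 in WT, a difference of 0.30 ± 0.25 (adjusted p = 0.912) that was -0.03 with the scanner's ratios, where WT of replicate 2 stood at 1.22. The change from 75 to 90 min was 0.55 and -0.09 in 4P, against -0.93 and -0.93 in WT. Its difference between strains was 1.16 ± 0.36 (adjusted p = 0.578), a contrast in which 0% of all genes passed in limma (326 unadjusted), and 0.365 with the scanner's ratios (adjusted p = 0.632). For CLN1 the difference in this step was 0.47 ± 0.36 and for PCL1 0.58 ± 0.45 (adjusted p = 0.895 each). The PCL1 value turned to -0.69 with the scanner's ratios, where PCL1 changed by 0.076 and -0.114 in 4P, against 0.54 and 0.801 in WT.

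**Figure D4:**
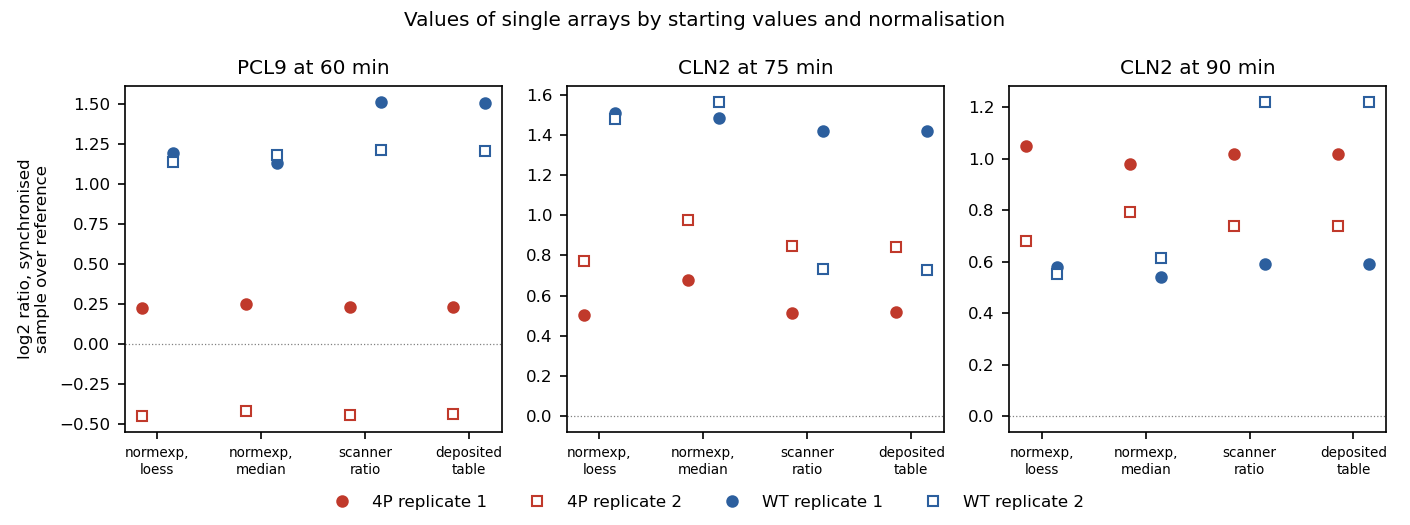
Panels show PCL9 at 60 min, CLN2 at 75 min and CLN2 at 90 min; the horizontal axis gives 4 ways to obtain the ratio and the vertical axis the log2 ratio of sample over reference, with 1 point per array, 4P in red left of WT in blue, circles for replicate 1 and squares for replicate 2. For PCL9 all 4P points lie below all WT points in each of the 4 ways, and for CLN2 the WT square at 75 min moves from 1.48 and 1.57 to 0.73 in the scanner's ratio.

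CLN3 was lower in 4P at 30 and at 105 min. At 30 min the ratios were -0.78 and -0.68 in 4P, against -0.04 and -0.18 in WT, a difference of -0.62 ± 0.17 (95% interval -0.98 to -0.26, adjusted p = 0.245). Across 10 other settings, of which the filters and the replicate and time course blocks could not move it, it ran from -0.65 to -0.55. Between 15 and 30 min CLN3 changed by -0.25 and -0.42 in 4P, against 0.45 and 0.30 in WT, and the difference between strains was -0.71 ± 0.24 (adjusted p = 0.65) in a step in which 0.0161% of all genes passed. The fall in 4P depends on the starting values: with the scanner's ratios CLN3 changed by 0.22 and 0.050 in 4P, against 0.90 and 0.70 in WT, so it was higher at 30 min in all 4 courses, and the deposited table gave the same signs. The difference between strains in this step ran from -0.88 to -0.66 across 10 other settings, of which the same ones could not move it. At 105 min the ratios were -1.40 and -0.86 in 4P, against -0.43 and -0.59 in WT, again -0.62 ± 0.17 (adjusted p = 0.178). That contrast holds the 4P array with 1761 outlier-marked spots. Without the other 4P array, replicate 2, the difference was -0.89 (adjusted p = 0.00846), and without replicate 1 it was -0.35. Over the whole course CLN3 came nearest to a call at any time (F = 4.32, adjusted p = 0.054), and it passed with a replicate block (adjusted p = 0.0208). It failed with the scanner's ratios (adjusted p = 0.311) and with slide as a block (adjusted p = 0.49).

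PCL2 was lower in 4P at 0 and at 60 min. In the arrest the ratios were 1.84 and 0.98 in 4P, against 2.21 and 1.78 in WT, which overlap, and the difference was -0.59 ± 0.27 (adjusted p = 0.62). At 60 min they were 0.10 and -0.42 in 4P, against 0.68 and 0.48 in WT, which do not, and 18.5% of all genes lay below in this way. The difference was -0.73 ± 0.27 (adjusted p = 0.562). With a replicate block PCL2 passed the test for a difference at any time (adjusted p = 0.0231), where the fit without it gave an adjusted p = 0.284.

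The differences of CLN1 and PCL1 were not called either. CLN1 stood at 0.59 and -0.03 in 4P at 105 min, against -0.06 and -0.63 in WT. Both 4P arrays were higher, as for 14.7% of all genes, and the difference was 0.62 ± 0.26 (95% interval 0.09 to 1.16, adjusted p = 0.484). This contrast too holds the 4P array with 1761 outlier-marked spots, without which the difference was 0.31. It was 0.93 without the other 4P array and 0.14 with slide as a block. The other CLN1 differences ran from -0.50 at 60 min to 0.43 at 90 min. PCL1 ran from -0.62 ± 0.32 at 45 min to 0.47 at 0 min, and the 95% interval of its difference at 15 min (0.11) reached from -0.55 to 0.77. At 75 min the PCL1 difference was -0.16, and 0.75 with the scanner's ratios or the deposited table. On the only slide that held both strains in the same replicate, at 45 min of replicate 1, 4P minus WT was -1.002 for PCL1 and -0.75 for CLN2, against -0.23 and 0.12 across slides in replicate 2.

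Seen by time, both 4P arrays lay below both WT arrays for all 6 genes at 30 min, where 27.8% of all genes did so, with a median difference of -0.39 over the 6 and of -0.01 over all genes. At 60 min 5 of the 6 did (all but CLN2), against 18.5% of all genes, with medians of -0.42 and -0.01. At 0 min CLN2 and CLN3 lay below (14.8%), at 15 min none of the 6 lay apart, and at 45 min PCL1 lay below (22.7%). At 75 min CLN2 alone lay below (27.8% of all genes) and PCL9 alone above (30.1%). At 90 min CLN1, CLN2 and PCL1 lay above (19.4%), and at 105 min CLN1 and CLN2 lay above (14.7%) and CLN3 below (14%). The 6 genes are not independent, since CLN1, CLN2 and PCL1 share a course. The sign at 60 min was not shared by all settings: PCL1 stood at 0.01 with the scanner's ratios or the deposited table, and CLN1 at 30 min at up to 0.43 with them.

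Other genes of the same circuits give the setting. Among 9 further genes of the Pho85 module, which include the kinase gene itself and its phosphate and glycogen cyclins, 4 changed over time in 4P, where 40.4% of all genes did, and 6 in WT, where 35.6% did. The amino acid cyclin gene PCL5 had the widest range in WT (1.51 in 4P, 1.47 in WT), followed by the cyclin gene CLG1 (0.70 in 4P, 1.04 in WT). In this list 1 gene passed between strains, PCL7, which was lower at 75 min by -0.54 ± 0.16 (adjusted p = 0.0483). At that time 4.98% of all genes passed, a share that hung on a single array as given above. The list median there was -0.28, against 0.00 over all genes. Of 10 SBF and MBF regulators 5 changed over time in 4P and 7 in WT, beside the same 40.4% and 35.6% of all genes, led by MSA2 (range 3.33 in 4P, 2.89 in WT) and SWI4 (2.76 and 2.54). MSA2, which encodes an activator of G1 transcription, was lower in 4P at 60 min by -1.20 ± 0.25 (adjusted p = 0.027), where 0.451% of all genes passed. It was the only one of these regulators to pass at a single time, while SWI4 was not called at any.

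The 12 Cdk1 partners, inhibitors and genes of Cln turnover held 5 that changed over time in 4P and 4 in WT, shares close to the 40.4% and 35.6% of all genes. FAR1, the Cln-Cdk1 inhibitor of the pheromone arrest, and RME1, a repressor of meiotic entry that also acts on the CLN2 promoter, had the widest ranges (4.59 and 3.70 in 4P, 4.65 and 3.59 in WT). RME1 was lower in 4P at 60 min by -0.99 ± 0.20 (adjusted p = 0.0264), where 0.451% of all genes passed. FAR1 was higher at 75 min by 0.87 ± 0.23 (adjusted p = 0.037), where 4.98% passed, a share that hung on a single array as given above. With slide as a block the 28 genes called at 60 min became 4 and the 309 at 75 min became 6. Calls of single genes outside the 6 cyclin genes were not followed across settings. SIC1 was lower in 4P at 60 min by -0.83 ± 0.18 (adjusted p = 0.0398), and since it was picked for its likeness to PCL9 over the same 16 means, its difference is not independent of that of PCL9. The kinase gene CDC28 and the SCF genes GRR1, CDC4, CDC34, CDC53 and SKP1 were not called between strains at any single time.

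CLN3 belongs to 11 early cell cycle box genes, all of which changed over time in both strains, beside 40.4% of all genes in 4P and 35.6% in WT. At 105 min all 11 were negative with a median of -0.90 and 5 passed, all lower, beside 0.371% of all genes. The lowest was MCM7, a subunit of the replicative helicase, at -1.67 ± 0.21 (adjusted p = 0.000244). The helicase genes MCM5 and MCM2 passed there too, at -1.29 ± 0.17 (adjusted p = 0.000292) and -1.22 ± 0.18 (adjusted p = 0.000791). That contrast holds the 4P array with 1761 outlier-marked spots, and the 4P replicates correlated at 0.586. CLN3 at -0.62 lay nearer to 0 than the median of its list there. At 30 min 10 of the 11 were negative, with a median of -0.28, and CLN3 again stood at -0.62. At 15 min all 11 were positive with a median of 0.20 and 1 passed, beside 0.113% of all genes. It was the replication factor gene CDC6, at 1.05 ± 0.16 (adjusted p = 0.00522). Lower in 4P were also MCM7 at 45 min (-1.28, beside 0.161% of all genes called) and MCM5 at 60 min (-1.04, beside 0.451%). At 75 min CDC6 (0.84) and a further gene of the list were called higher, beside 4.98% of all genes called, a share that hung on a single array. CDC6 and SWI4, named for their range in WT, spanned 2.27 and 2.76 in 4P, against 2.57 and 2.54 in WT.

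The 6 B-type cyclin genes, which take over Cdk1 after the G1 cyclins, all changed over time in both strains. Of all genes 40.4% did so in 4P and 35.6% in WT. In the fit without a replicate block the 6 were called between strains at 0 single times. The share of all genes called ran from 0.0322% at 90 min to 4.98% at 75 min, so a count of 0 among 6 does not set them apart. CLB6 and CLB1, named for their range in WT, spanned 4.93 and 4.06 in 4P, against 4.68 and 4.40 in WT, and CLB6, like CLN1, was highest at 15 min in 4P and in WT.

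The mutated genes themselves were read in every sample. HCM1 ranged from -1.59 to 0.79 in 4P (median -0.58), against -1.63 to 0.88 in WT (median -0.25). TOS4 ranged from -3.88 to -2.14 in 4P (median -3.43), against -3.69 to -1.93 in WT (median -2.90). YOX1 ranged from -0.99 to 1.36 in 4P with a median of -0.32, against -0.70 to 2.32 in WT with a median of 0.72. YHP1 ranged from -2.96 to -1.48 in 4P (median -2.37), against -2.79 to -1.15 in WT (median -1.79). YHP1 was called lower in 4P at 30, 45 and 90 min. Whether these probes cover altered or tagged sequence was not analysed here, so the values are not a check of the alleles.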

How the data were processed

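RNA from 32 synchronised samples was hybridised on 2-colour Agilent arrays against a common reference, and the submitters' processing notes name Agilent Feature Extraction 10.7.1.1. The deposited scanner files hold median signal and background intensity for each dye, beside the scanner's log10 ratio (red to green), per the file headers. The deposited table of the series holds log2 values. Its normalisation and centring are not given in the sources used here, and its columns have medians between -0.04 and 0.02 and correlate with the scanner's ratios at r = 0.961 to 0.999.

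In limma 3.58.1 (R 4.3.3), signals were corrected with normexp (offset 50) and normalised by loess within arrays. The main analysis used median signals. Outlier-marked spots were left out, the 2 spots of a probe averaged, and ratios turned to sample over reference. Probes well above background in at least 1 whole group were kept, which left 6236 of 6256 probes and 6205 genes. Symbols came from a RefSeq table of assembly R64, which matched 5737 of 6225 names. The array's annotation uses an older build, so no coordinates are given, and no sequence was used.

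Means of 16 groups were fitted over all 32 arrays, without a replicate block. Moderated F tests and contrasts were adjusted by the Benjamini-Hochberg method at 0.05 over all genes, and the course mean used 1 value per time course over the 5729 genes complete on all arrays. P values measure the spread between arrays labelled as replicates. The steps between successive times were added after the data were seen. The code was tested on simulated data. The 6 genes and the lists of related genes were chosen with earlier results of these data known. The result of 1 of these lists is not reported here. Named were the 6 genes, the 3 genes most like each over 16 means, and, of each pathway list reported, the 2 with the widest range in WT and up to 4 genes, by adjusted p, that passed between strains at a single time. The mutated genes and the mating-type genes that passed are named beside this rule. In the design the replicate number pairs dye orientation between strains: deviations from the group means correlated at 0.05 to 0.38 between same-numbered 4P and WT arrays of a time, and at 0.19 to 0.60 within 4P and 0.37 to 0.75 within WT between successive times, where the number marks 1 time course. Alternatives were the scanner's ratios, the deposited table, median centring, no background correction, 2 other filters, outliers kept, replicate, slide or time course as a block, and leaving out each array. For the 6 genes the filters and the replicate and time course blocks leave the size of a difference unchanged, so ranges over settings rest on the others.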

Additional observations from a re-analysis of the deposited data

Results flagged for a closer look

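In 3 of the 42 steps of these cyclin genes both 4P courses moved one way and both WT courses the other after normexp and loess. How often all genes did so in the same steps was not counted, so the 3 steps are not shown to be unusual. The shares of all genes given below are for calls, which is a different measure. For PCL9 the opposite movement held in all 5 sets of starting values and normalisations, and for each CLN3 step it failed in some. PCL9 between 60 and 75 min rose by 0.59 and 0.96 in 4P, against changes of -0.91 and -0.66 in WT, and the difference between strains was 1.56 ± 0.42 (adjusted p = 0.347 in limma). It was 1.55 to 1.63 over 10 other settings. The filters and blocks among these could not move it, so the range rests on the remaining settings. The difference passed with slide as a block alone (adjusted p = 0.028). In this step 0.0806% of all genes passed.

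CLN3 between 15 and 30 min changed by -0.25 and -0.42 in 4P, against 0.45 and 0.30 in WT, a difference of -0.71 ± 0.24 (adjusted p = 0.65, with 0.0161% of all genes called). With the scanner's ratios the 4P changes were 0.22 and 0.050, against 0.90 and 0.70 in WT, and the deposited table gave 4P changes of 0.21 and 0.05, against 0.89 and 0.69 in WT, so both strains rose. Between 30 and 45 min it changed by 0.53 and 0.84 in 4P, against -0.10 and -0.02 in WT, a difference of 0.74 ± 0.24 (adjusted p = 0.999, with 0% of all genes called and 46 unadjusted). With median centring the WT changes were 0.0059 and 0.026, so the signs were no longer opposite. Both steps share the samples of 30 min.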

How the results depend on the processing

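With 6 genes, the count called changed in few settings. All 6 kept their change over time in both strains under every setting run. With a replicate block 2 genes (CLN3 and PCL2) passed at any time, 1 (PCL9) at 60 min and 1 (CLN2) at 75 min, each against 0 without it. Leaving out single arrays gave 0 to 1 gene at any time, at 60, 75 and 105 min and in 75 minus 15 min between strains, and 1 to 2 in 75 minus 15 min in WT. With 1 array of a group left out its dye orientation is unbalanced, and the lone array is assumed to vary like the other groups. PCL9 at 60 min ran from -1.62 to -0.94 and CLN2 at 75 min from -0.99 to -0.72 in these fits, with adjusted p values up to 0.716 and 0.279. CLN2 between 15 and 30 min in WT changed sign without WT at 15 min of replicate 1, from -0.37 to 0.12, and was -0.85 without replicate 2. The call of CLN1 between 15 and 30 min was lost with the scanner's ratios (adjusted p = 0.269 in 4P and 0.0622 in WT). Over the 10 settings other than left-out arrays, 19 of 48 single-time differences and 12 of 42 step differences between strains changed sign in at least 1. None of the differences between strains had been called at the outset. Of the steps within a strain 11 of 84 changed sign in at least 1 setting, and 0 of these 11 had been called. Slide and time course as blocks were not run for the course mean.

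Counts over all genes moved more. Over the 10 settings other than left-out arrays the genes called numbered 1677 to 3443 for change over time in 4P (main 2506), 1880 to 3190 in WT (2210), 23 to 1004 at any time (313), 0 to 47 for a difference that depends on time (5) and 0 to 654 for the course mean (1). Between strains they numbered 0 to 14 at 0 min (7), 1 to 89 at 15 min (7), 2 to 31 at 30 min (6), 2 to 20 at 45 min (10), 4 to 43 at 60 min (28), 6 to 997 at 75 min (309), 0 to 11 at 90 min (2) and 5 to 36 at 105 min (23). For 75 minus 15 min they numbered 216 to 832 in 4P (487), 964 to 1790 in WT (1083) and 0 to 11 between strains (0), and for 90 minus 75 min between strains 0 to 350 (0). Slide as a block gave the 6 at 75 min and the replicate block the 997. Leaving out 1 array gave 146 to 528 at any time, 2 to 12 for a difference that depends on time, 2 to 28 at 0 min, 3 to 299 at 15 min, 1 to 8 at 30 min, 1 to 12 at 45 min, 4 to 32 at 60 min, 1 to 419 at 75 min, 1 to 4 at 90 min and 10 to 337 at 105 min. For 75 minus 15 min it gave 206 to 554 in 4P, 217 to 1549 in WT and 0 to 153 between strains, and for 90 minus 75 min between strains 0 to 3. The cause of these changes was not tested.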

Other observations

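For PCL2, 4P minus WT was negative at 0 to 75 min and positive at 90 and 105 min, and for CLN3 it was negative at 6 of the 8 times. The replicates agreed in the sign of 4P minus WT at 7 of 8 times for CLN1, 6 for CLN2 and PCL2, 5 for CLN3 and 4 for PCL1 and PCL9. Matching counts over all genes were not made, so these do not show agreement particular to any of the genes. Successive times of a time course were also correlated, as given above, so the 8 times are not independent checks.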
